A study of Mus musculus with 4 samples.

Results

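The circadian clock genes Per1, Per2, Per3, Dbp, Nr1d1, Nr1d2, Arntl, Clock, Cry1 and Npas2 were followed through the nuclei of 4 mouse lungs. They were picked out by gene symbol, and all 10 were found among the 32285 genes of the deposited annotation. Earlier results of these data were known when the genes were chosen. The lungs came from C57/BL6J mice, 2 wild-type mice (WT) and 2 VEcad-TRF2DN-Tg mice (Tg). Per the study the mice of both groups had been kept in chronic hypoxia. Their age is given as 8 to 9 weeks, and whether this was before or after the hypoxia is not stated. Tg mice carry as heterozygotes TRF2DN, a TERF2 construct without its basic and Myb domains, under the VE-cadherin promoter, which is active in endothelial cells (ECs), while WT mice carry no transgene. Each library held the nuclei of 1 lung, so every comparison of genotypes rests on 2 mice against 2. P-values of the plain genotype test measure only the spread between these libraries. Tests that set cell classes against each other had a term for each mouse. Their p-values rest on the spread of class sums that share these 4 mice. Mouse Terf2 measured 49.6 and 45.9 counts per 1e+06 UMIs in WT and 42.2 and 49.1 in Tg ECs, and whether reads of the construct were counted under it is not given in the sources used here, so that this does not check the labels. The hour at which each lung was taken is not given in the sources used here.

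The clock is a transcriptional feedback loop that runs in nearly every cell of the body. Arntl, also called Bmal1, pairs with Clock or its relative Npas2 and activates Per1, Per2, Per3, Cry1, Nr1d1, Nr1d2 and Dbp through E-boxes in their regulatory DNA. The Per and Cry proteins then repress that pair, the nuclear receptors Nr1d1 and Nr1d2 (REV-ERB alpha and beta) repress Arntl and Npas2, and Dbp, a PAR bZIP factor, activates genes with D-boxes. In peripheral organs such as the lung Arntl and Npas2 therefore peak at about the opposite time of day from Dbp and Nr1d1, which makes the ratio between these arms a possible readout of phase.

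Sequences of that loop could be read for 9 of the 10 genes from the RefSeq promoter table of GRCm38.p6, in windows of 250 bases before each start. The letters searched on both strands were CACGTG for the E-box, CACGTT for the related E′-box, TTATGTAA, TTACGTAA and TTACATAA for the D-box and TAGGTCA for the element that Nr1d1 and Nr1d2 bind. The windows that held a match are shown because they hold the letters of elements known from this loop; whether they act as such was not tested. Capitals mark the match, and each is written 5′ to 3′ on the strand of its gene.
Per1 E-box: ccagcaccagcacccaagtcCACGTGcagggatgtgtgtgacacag
Cry1 E-box: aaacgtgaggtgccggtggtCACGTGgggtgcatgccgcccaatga
Nr1d1 E′-box: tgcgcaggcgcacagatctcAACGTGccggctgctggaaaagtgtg
Per3 D-box, distal: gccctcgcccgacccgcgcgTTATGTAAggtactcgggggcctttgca
Per3 D-box, proximal: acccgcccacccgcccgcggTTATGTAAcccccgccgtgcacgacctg
The Per1 window lies at chr11:69098763-69098808 on the plus strand, 166 bases before a start that is inside the gene, in an intron of its longer transcripts. The Cry1 window (chr10:85185089-85185134, minus strand) lies 60 bases before the start, and an E′-box stands 79 bases before the same start. The Nr1d1 window (chr11:98775380-98775425, minus strand) lies 28 bases before the start, and those of Per3 (chr4:151044843-151044890 and chr4:151044796-151044843, minus strand) lie 205 and 158 bases before it. The E-box letters occurred in 6.02% of 32851 promoter windows, the E′-box letters in 3.85%, the D-box letters in 0.931% and TAGGTCA in 2.23%. The windows of Dbp, Nr1d2, Arntl, Clock and Npas2 held none of these letters, which says nothing of elements elsewhere in those genes.

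The libraries held 125261739 to 182014706 UMIs, with 25269 to 44000 barcodes of at least 1500 UMIs in each mouse, and between 0.653% and 1.3% of these barcode sequences recurred in another library. A barcode was put in a class where markers of exactly 1 cell type exceeded what that mouse's free RNA would give, and the 10 classes with at least 20 nuclei in every mouse held 2953 nuclei in WT replicate 1, 4345 in WT replicate 2, 8343 in Tg replicate 1 and 10700 in Tg replicate 2. In the same order the mice had 26933, 38543, 25269 and 44000 barcodes of at least 1500 UMIs. The share of barcodes in these classes was thus smaller in both WT mice than in both Tg mice. All fixed markers of each class were detected in it, and no marker of another class stood among its 10 leading genes. The same markers defined the classes and excluded barcodes with a second class, so this is not an independent check of the classes. Free RNA was read from the 2732 to 18387 barcodes of 300 to 800 UMIs in each mouse, called droplets here, and markers of other cell types put its share of the class sums at 32.0% to 73.9%. The Tg libraries stood apart in every class: mitochondrial transcripts made up 0.211% to 0.422% of their UMIs against 0.0355% to 0.115% in WT, and Scgb1a1, a secretory protein of club cells, 0.955% to 4.22% against 0.428% to 0.95%. Genes shorter than 5 kb lay above WT in Tg ECs (median log2 difference 0.97) and genes longer than 100 kb below it (median -0.37). Clock genes lie on both sides of that trend, since Dbp spans 5.1 kb and Nr1d1 7.4 kb, while Clock spans 94.9 kb, Arntl 106.7 kb and Npas2 169.5 kb.

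The clock genes differed between cell classes. By mean level over the 4 mice and among the 10 tested classes, ciliated cells held the most Npas2, Per2 and Per3, T cells, B cells and alveolar macrophages the most Arntl, and mesothelial cells the most Per1 and Nr1d2. Each class was compared with the mean of the other classes with a term for the mouse, and 59 of the 100 pairs of gene and class passed edgeR's quasi-likelihood test, beside 33.5% of all pairs of gene and class tested. Levels are given in CPM, counts per 1e+06 UMIs of the same sum, and only within 1 gene.

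Npas2, the partner that can stand in for Clock, had the widest range, 13.6-fold from its highest to its lowest class. In ciliated cells the WT mice measured 116 and 77.8 CPM and the Tg mice 61.1 and 58.4 CPM. No other tested class reached these levels in any mouse. Mesothelial cells came next by mean with 14.95 to 24.4 CPM, B cells reached 52.7 CPM in 1 mouse, and from mesothelial cells down the ranges of neighbouring classes overlapped. The ciliated level lay 2.96 above the mean of the other classes on the log2 scale (SE 0.12, edgeR adjusted p = 9.13e-26), and the free RNA could supply 2.66% to 7.52% of it. Npas2 was also higher in mesothelial cells (log2 difference 1.01, SE 0.16), and it was lower in ECs (-0.76, SE 0.19), alveolar type 1 cells (-1.05, SE 0.18) and alveolar macrophages (-1.07, SE 0.16). In these last 3 classes free RNA could supply a median of 57.6% to 65.5% of its level.

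Per2, an inhibitor of Arntl and Clock, was highest in ciliated cells too. It measured 138 and 111 CPM in WT and 169 and 121 CPM in Tg ciliated cells, whereas no other tested class exceeded 84.6 CPM in any mouse. Club cells, another airway class with too few nuclei to test, measured 87.5 and 139 CPM in WT and 160 and 124 CPM in Tg mice, on 6 to 76 UMIs. The difference from the other classes was 1.5 (log2, SE 0.10, edgeR adjusted p = 8.73e-18). Per3 followed with 0.85 (SE 0.07, adjusted p = 2.34e-14), and its order of classes was ciliated, mesothelial, alveolar type 1, fibroblast and alveolar type 2, with overlapping ranges between every pair of neighbours. Cry1, the partner of the Per proteins in repression, was higher in ciliated cells by 1.12 (SE 0.15, adjusted p = 1.33e-08). Clock was lower there by 0.30 (log2 difference -0.30, SE 0.07) and Nr1d2 by a log2 difference of -0.22 (SE 0.07). Arntl was higher there by 0.40 (SE 0.15), a call that remained in 4 of 8 alternative settings. In all, 7 of the 10 clock genes passed in ciliated cells, where 55.1% of the 14899 genes tested passed as well.

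**Figure D1:**
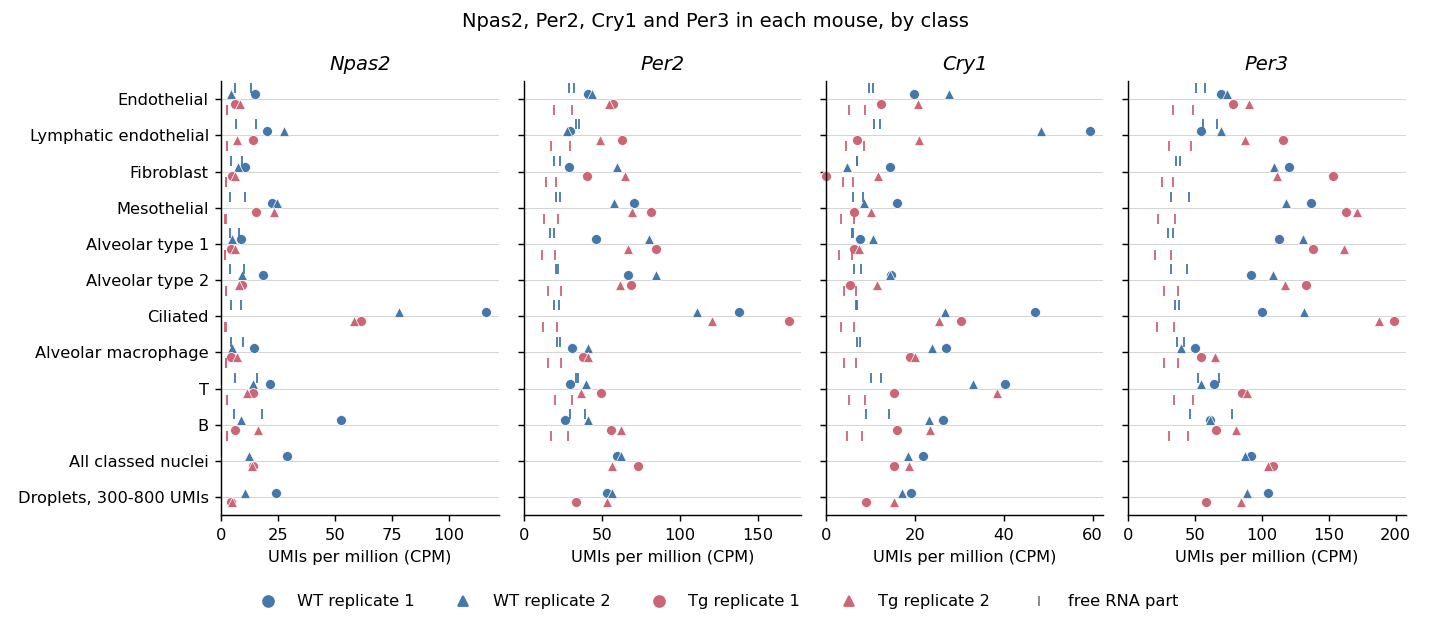
Levels of Npas2, Per2, Cry1 and Per3 (x axis, CPM) in each class, in all classed nuclei and in the droplets (y axis). Circles and triangles are the mice, blue WT and red Tg, and the upright ticks mark the part of each level that free RNA could supply; the ciliated values of Npas2, 58.4 to 116 CPM, stand clear of all other classes.

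Arntl, the activator without which the loop stops, was high in lymphocytes and alveolar macrophages and low in the alveolar epithelial, fibroblast and mesothelial classes. T cells measured 118 and 146 CPM in WT and 76.7 and 82.0 CPM in Tg mice. B cells followed with 105 and 69.0 CPM in WT and 47.6 and 43.3 CPM in Tg mice, and alveolar macrophages with 70.8 and 69.8 against 47.9 and 46.9 CPM. The ranges of these 3 classes adjoined or overlapped, and all lay above lymphatic ECs, the next tested class, which reached 41.5 CPM. Monocytes and interstitial macrophages, too few to test, measured 80.6 and 133 CPM in WT and 12.3 and 96.1 CPM in Tg mice, on 1 to 36 UMIs. Arntl was above the other classes by 1.86 in T cells (log2, SE 0.15, edgeR adjusted p = 4.33e-14), by 1.07 in alveolar macrophages (SE 0.12) and by 0.93 in B cells (SE 0.19). At the low end it differed by -1.40 in mesothelial cells (SE 0.20, edgeR adjusted p = 1.4e-07). The difference was -0.99 in fibroblasts, on 2 to 12 UMIs per mouse, -0.93 in alveolar type 1 cells and -0.61 in alveolar type 2 cells. Free RNA could supply a median of 12.0% of the Arntl level in T cells and 15% in alveolar macrophages, but 75.8% in mesothelial cells.

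Among the targets of Arntl, Cry1 was called in the direction of Arntl in several classes, while the Per genes and Nr1d2 often had the other direction. In T cells, where Arntl was highest, Per1 (log2 difference -0.51, SE 0.15), Per2 (-0.83, SE 0.17), Per3 (-0.66, SE 0.10) and Nr1d2 (-0.26, SE 0.09) were all lower than in the other classes, and Cry1 was higher (0.85, SE 0.19), so that 6 of 10 passed beside 25.1% of all genes. The call of Nr1d2 in T cells remained in 1 of 8 alternative settings. In alveolar macrophages 3 clock genes were higher (Arntl, Clock and Cry1) and 6 were lower, led by Per3 (-1.08, SE 0.08), Npas2 and Nr1d2 (-0.84, SE 0.07), where 53.6% of all genes passed. B cells had 1 gene higher and 4 lower, where 22% of all genes passed, and of the lower ones the call of Clock remained in 0 of 8 settings and that of Per1 in 2.

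Mesothelial cells showed the reverse arrangement, with Arntl and Cry1 (-0.80, SE 0.20) lower and the 8 others higher. Per1, an early responder to hormones and other signals, measured 48.0 and 54.9 CPM in WT and 81.1 and 51.7 CPM in Tg mice, a log2 difference of 0.97 (SE 0.10, edgeR adjusted p = 6.17e-11). Per3 was higher by 0.76 (SE 0.07), Nr1d2 by 0.73 (SE 0.07) and Dbp by 0.54 (SE 0.11). All 10 clock genes passed in this class, beside 39.2% of all genes tested, but the call of Clock remained in 1 of 8 settings and that of Nr1d1 in 3. Alveolar type 1 cells had the same directions for Per1 (0.65, SE 0.10), Per2 (0.59, SE 0.10), Per3 (0.81, SE 0.07), Nr1d1 (0.27, SE 0.11), Nr1d2 (0.37, SE 0.06), Arntl and Cry1 (-0.96, SE 0.18), with Npas2 lower in place of higher. The call of Nr1d1 there remained in 4 of 8 settings. In alveolar type 1 cells 8 of the 10 clock genes passed, beside 42.4% of all genes, and in alveolar type 2 cells 6 passed, beside 40%.

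In ECs, the cells in which the transgene is driven, 4 clock genes stood apart. Nr1d1 was higher than in the other classes (log2 difference 0.32, SE 0.11, edgeR adjusted p = 0.0295), and Per3 (-0.40, SE 0.08), Arntl (-0.44, SE 0.16) and Npas2 were lower. The other 6 clock genes did not pass, in a class where 27.3% of all genes did. The call of Nr1d1 remained in 3 of 8 alternative settings and that of Arntl in 2 of 8, and free RNA could supply 69.9% to 108% of the Nr1d1 level in ECs. Fibroblasts had Per3 (0.53, SE 0.13) and Nr1d2 (0.44, SE 0.11) higher and Arntl and Cry1 lower, beside 22.4% of all genes, and in lymphatic ECs 0 of 10 passed, beside 8.28%. By unadjusted p, 4 of the 10 were under 0.05 in lymphatic ECs, as were 2797 of all 14899 genes. When the estimated free RNA was subtracted, 42 of the 59 calls remained and none of the 59 turned direction.

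**Figure D2:**
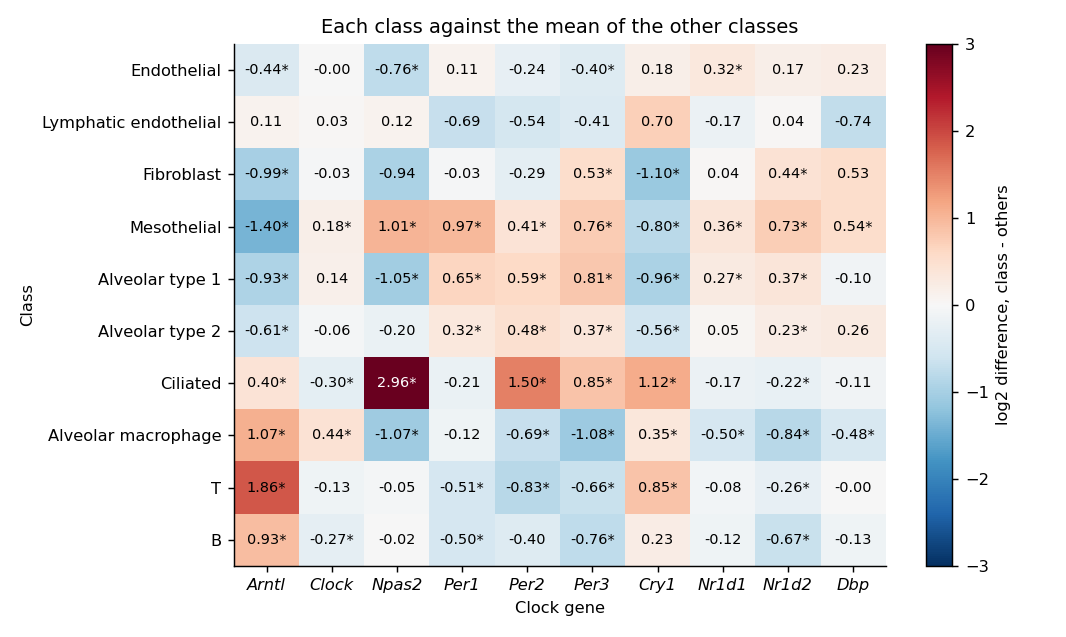
Log2 difference of each clock gene (x axis) in each class (y axis) from the mean of the other classes, over 4 mice, red higher and blue lower, with an asterisk where the edgeR adjusted p is under 0.05. Npas2 and Per2 in ciliated cells and Arntl in T cells are the strongest red fields (2.96, 1.5 and 1.86).

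Between genotypes, Dbp was the only clock gene that passed the test in any class. Its level was higher in Tg mice in 8 of the 9 classes in which it could be tested, with log2 differences of 0.82 to 1.85 over those 9 and a median of 1.52. Across all classes the Tg mice held 38.5 to 72.7 CPM and the WT mice 0 to 42.8 CPM, and within each of the 10 classes both Tg mice lay above both WT mice. Among all genes tested, the share called higher in Tg was 6.32% in ECs, 4.39% in lymphatic ECs, 4.99% in fibroblasts, 6.49% in mesothelial cells, 7.16% and 8.74% in alveolar type 1 and type 2 cells, 3.67% in ciliated cells, 6.85% in alveolar macrophages, 4.96% in T cells and 5.05% in B cells. Groups that did not overlap in that direction were found for 20.6% to 38% of genes.

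In ECs Dbp (chr7:45705088-45710203, plus strand) measured 19.9 and 26.7 CPM in WT against 72.7 and 60.9 CPM in Tg mice. The Tg values were well above the WT values, a 2.88-fold difference (log2 1.52, SE 0.24, edgeR adjusted p = 0.0181), in a class where 7.07% of 13186 genes passed in either direction and 6.32% passed as higher. The largest difference was in alveolar macrophages, with 13.7 and 12.0 CPM in WT and 48.9 and 46.1 CPM in Tg mice (log2 1.85, SE 0.21, adjusted p = 0.00887). In fibroblasts, the class that did not pass, Dbp measured 27.5 and 42.8 CPM in WT and 54.1 and 58.7 CPM in Tg mice (log2 0.82, SE 0.43, adjusted p = 0.325), with both Tg mice above both WT mice. Without Tg replicate 1 Dbp passed in 1 of 9 classes, with differences of 0.82 to 1.79 on the log2 scale, and with DESeq2 in 6 of 9. With the length trend removed it also passed in 1 of 9, with differences of -0.44 to 1.09, and of the EC genes of 5 to 10 kb, the span of Dbp, 11.8% were called higher. Lymphatic ECs had too few Dbp UMIs to test, 1 and 4 in the WT mice and 11 in each Tg mouse.

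Dbp was higher in Tg mice in free RNA as well. In the droplets Dbp measured 34.4 and 31.2 CPM in WT and 140 and 128 CPM in Tg mice, a 4.9-fold difference (log2 2.29, SE 0.26, edgeR adjusted p = 0.0178). The free RNA share of the EC sums times these levels gave 18.9 and 17.7 CPM in WT and 79.7 and 73.8 CPM in Tg mice, at or above the measured Tg level of ECs. Over the 40 sums of mouse and class, free RNA could supply a median of 97.7% of Dbp, and all of it in 19. In the barcodes of at least 1500 UMIs that had no class Dbp measured 28.8, 32.9, 68.6 and 73.9 CPM in WT replicates 1 and 2 and Tg replicates 1 and 2. Dbp UMIs of the nuclei and of free RNA cannot be told apart at these levels. In Tg mice these barcodes held less Dbp than the droplets, so the share that free RNA could supply depends on which barcodes stand for it, and the share from the droplets may be too high. With the droplet estimate subtracted, few or no Dbp UMIs were left in most Tg sums, so that it gives no fold there. In mesothelial cells, where Dbp UMIs remained in all 4 mice, the log2 difference was then 0.25 and did not pass (edgeR adjusted p = 0.893).

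**Figure D3:**
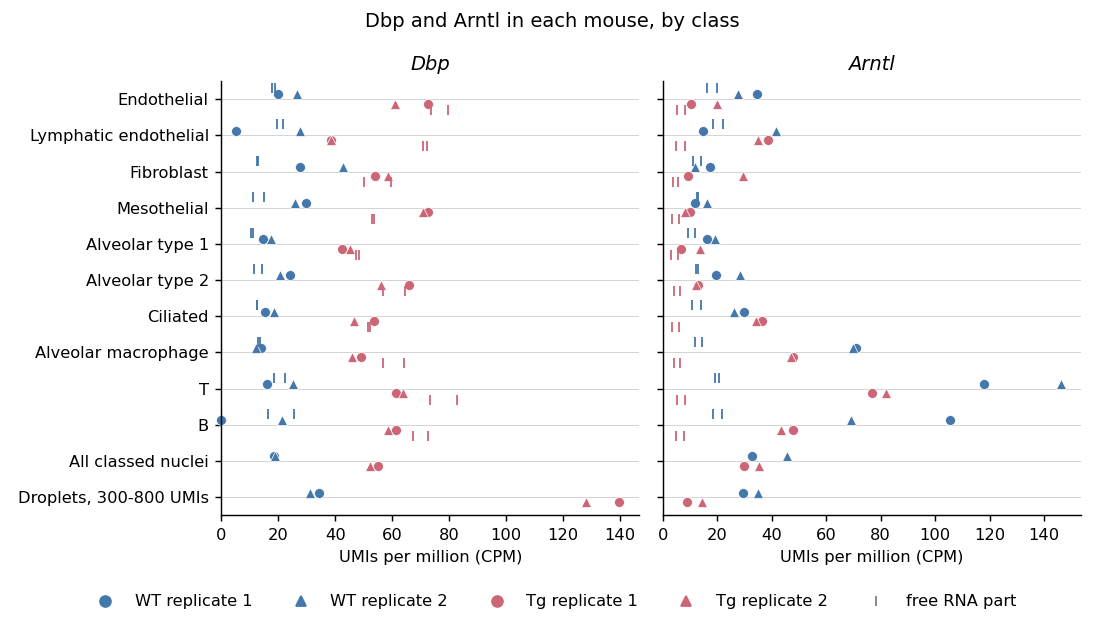
Levels of Dbp and Arntl (x axis, CPM) by class, in all classed nuclei and in the droplets (y axis), with circles and triangles for the mice, blue WT and red Tg, and upright ticks for the part free RNA could supply. For Dbp the ticks reach or pass the points in 19 of the 40 sums of mouse and class, while for Arntl in T cells, 76.7 to 146 CPM, they stay far below them.

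The arm opposite to Dbp had mostly lower values in Tg mice and passed the test in no class. Arntl (chr7:113207465-113314126, plus strand) was below WT in 7 of the 8 classes tested, and in those 7 classes both Tg mice lay below both WT mice. In ECs it measured 34.5 and 27.7 CPM in WT and 10.5 and 19.9 CPM in Tg mice (log2 difference -1.02, SE 0.33, edgeR adjusted p = 0.105). It passed in ECs in 4 of 15 alternative settings, among them the replicate block (lowest edgeR adjusted p = 0.0054, without WT replicate 2; highest over the 15 settings 0.73), in alveolar type 2 cells in 2 and in T cells in 1. Free RNA could supply a median of 47.7% of the Arntl level in ECs. The alveolar macrophage values gave a log2 difference of -0.63 (SE 0.16, adjusted p = 0.0608), and those of T cells -0.71 (SE 0.22, adjusted p = 0.085). Groups that did not overlap, with Tg lower, were found for 23.6% to 31.3% of all genes by class.

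Clock, Cry1 and Npas2 had log2 differences below 0 in every class tested (10, 9 and 8 classes), with medians of -0.19, -0.43 and -0.45, and 0 passed. All genes of 50 to 100 kb, the span of Clock and Cry1, had medians of -0.25 to -0.10 by class. Genes over 100 kb, as Npas2 and Arntl are, had medians of -0.38 to -0.20. Npas2 in ECs measured 14.6 and 4.27 CPM in WT and 6.03 and 7.94 CPM in Tg mice, and without WT replicate 1 its log2 difference turned to 0.74 in ECs and 0.066 in all classed nuclei. Nr1d2 was below WT in 9 of 10 classes, with a median of -0.23. On the other side Per3 was above WT in 10 of 10 classes, and its mice did not overlap in 9 of them, where 20.6% to 38% of all genes did not overlap in that direction. In ciliated cells it measured 100 and 132 CPM in WT and 199 and 187 CPM in Tg mice (log2 0.72, SE 0.21, edgeR adjusted p = 0.0978). For Per3 the droplets went the other way, with 105 and 88.6 CPM in WT and 58.3 and 84.7 CPM in Tg mice. Per1 lay above WT in 9 of 9 classes with a median of 0.35, Per2 in 9 of 10 with a median of 0.27 and Nr1d1 in 9 of 10 with a median of 0.59. All genes of 5 to 10 kb, the span of Nr1d1, had medians of 0.48 to 1.03 by class, and genes of 10 to 20 kb, the span of Per1, 0.22 to 0.47. Free RNA could supply a median of 86.3% of Nr1d1 over the 40 sums of mouse and class, and all of it in 15. Clock genes thus gave 8 calls in 93 tests over the 10 classes, all of Dbp and all higher, beside 6.86% of all tests called and 6.06% called higher. None was called lower, beside 0.8% of all tests.

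**Figure D4:**
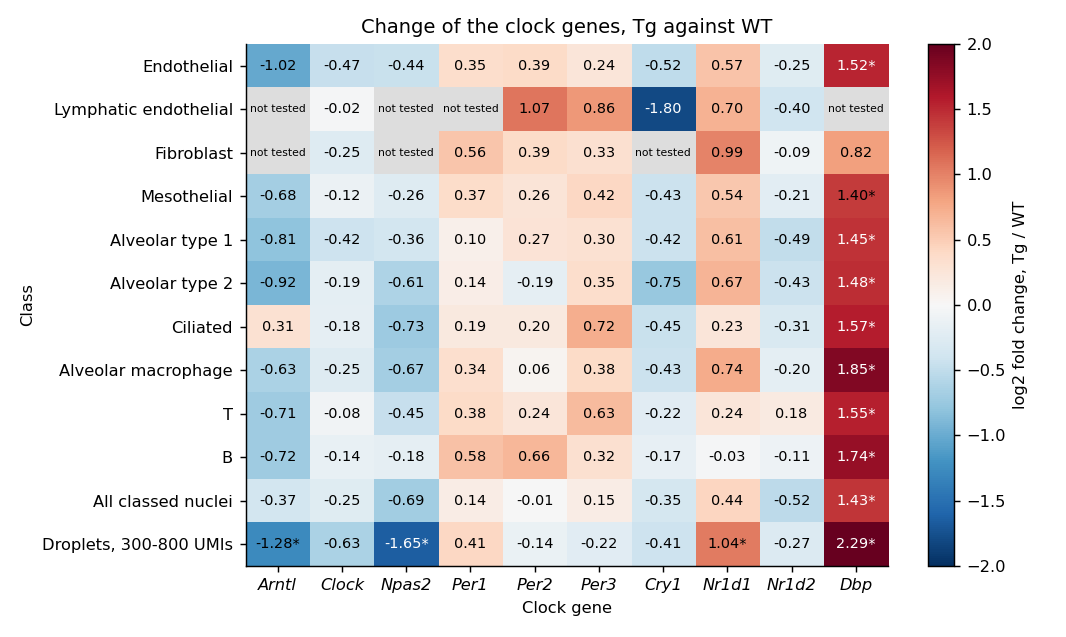
Log2 fold change of each clock gene (x axis) between Tg and WT mice in each class, in all classed nuclei and in the droplets (y axis), red higher in Tg and blue lower, with an asterisk where the edgeR adjusted p is under 0.05. In the classes asterisks stand in the Dbp column alone, from 1.40 to 1.85.

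Summed over all classed nuclei, Dbp was again the clock gene that passed, with 18.4 and 18.8 CPM in WT and 55.2 and 52.2 CPM in Tg mice (log2 1.43, SE 0.17, edgeR adjusted p = 0.0406), beside 3.76% of 18468 genes. In the droplets 4 of the 10 passed, where 25.6% of 15180 genes did. Nr1d1, a repressor of Arntl, was higher there, with 52.5 and 86.2 CPM in WT and 106 and 137 CPM in Tg mice (log2 1.04, SE 0.29, adjusted p = 0.0415). Arntl was lower (29.3 and 34.9 against 8.97 and 14.4 CPM, log2 difference -1.28, SE 0.28, adjusted p = 0.0252), and so was Npas2 (23.9 and 10.5 against 4.37 and 4.62 CPM, log2 difference -1.65, SE 0.48, adjusted p = 0.0475). The higher genes of these 4 are short and the lower ones long, and in these libraries genes of 5 to 10 kb had a median log2 difference of 0.71 in the droplets and genes over 100 kb a median of -0.95. Length and genotype cannot be told apart for a gene in these libraries, and with the length trend removed 1 of the 10 clock genes passed in the droplets, 0 in all classed nuclei and Dbp in 1 class.

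The transgene is driven in ECs, so the genotype difference of ECs was tested against that of the other tested classes, with lymphatic ECs left out. None of the 10 clock genes passed, and 6 of 14751 genes (0.0407%) did, while 515 had an unadjusted p under 0.05. For Dbp the difference between ECs and the other classes was 0.0084 on the log2 scale (SE 0.24), and for Arntl it was -0.43 (SE 0.30, edgeR adjusted p = 1). On simulated counts this test recovered 40.5% of 2-fold and 90% of 4-fold differences confined to ECs. A test of the same form, with lymphatic ECs included, was made for each of the other classes in turn. It called 1 clock gene, Arntl in ciliated cells. There it measured 29.8 and 25.9 CPM in WT and 36.5 and 34.0 CPM in Tg mice, both Tg mice above both WT mice, unlike in the 7 classes named above. Its genotype difference lay 0.99 above that of the other classes (log2, SE 0.24, adjusted p = 0.0219), beside 0.826% of genes called in that test. In the tests of the other classes 0.349% of genes were called for mesothelial cells, 0.215% for alveolar macrophages, 0.121% for fibroblasts, 0.094% and 0.0134% for alveolar type 1 and type 2 cells, 0.0268% for B cells and 0% for T cells and lymphatic ECs. The call remained in 2 of 8 settings, without a filter and without WT replicate 1. It was lost when WT replicate 2 (adjusted p = 0.505), Tg replicate 1 (0.474) or Tg replicate 2 (0.085) was left out, with total UMIs (0.0526), with the stricter class call (0.17) and with free RNA subtracted (1).

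As a possible readout of phase, the log2 ratio of 2 sums of UMIs was taken in each mouse. The first sum held Arntl, Clock, Npas2 and Cry1, and the second Per1, Per2, Per3, Dbp, Nr1d1 and Nr1d2. Cry1 was put in the first sum although it is itself a target of Arntl. Whether this ratio reads phase in these lungs was not tested. Genes with more UMIs weigh more in it, in ECs Clock and Nr1d2 more than Arntl and Dbp. Nr1d2 held 331 of the 720 UMIs of the second sum in ECs of WT replicate 1. It lay below WT in 9 of 10 classes, unlike the other genes of that sum. Over all classed nuclei the ratio was -0.75 and -0.77 in WT and -1.26 and -0.96 in Tg mice, so that both Tg mice lay toward the Per and Dbp side. The make-up of the nuclei enters this sum, since 461 and 1331 of the classed nuclei were alveolar macrophages in WT and 3384 and 4992 in Tg mice, the class with the highest ratio. In ECs it was -0.66 and -0.94 in WT and -1.77 and -1.41 in Tg mice, and in the droplets -0.996 and -1.20 against -2.58 and -2.07. Both Tg mice lay below both WT mice in 10 of 10 classes, with differences of the means between -0.84 and -0.44. Each of the 4 genes of the first sum spans more than each of the other 6 (53.4 to 169.5 kb against 5.1 to 43.3 kb), and long genes lay lower and short genes higher in the Tg libraries of every class. The ratio was not computed with the length trend removed, so length and phase cannot be told apart in it. The ratio also differed between classes of the same mouse, from -1.70 in mesothelial cells to -0.0035 in alveolar macrophages as means of the 4 mice. These values are given as descriptions, and no p is given for a ratio over chosen genes.

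The log2 ratio of Arntl to Dbp differed more in ECs, with 0.79 and 0.06 in WT and -2.78 and -1.61 in Tg mice. In alveolar macrophages it was 2.34 and 2.54 in WT and -0.03 and 0.025 in Tg mice. Both Tg mice lay below both WT mice in 9 of 10 classes, fibroblasts being the exception. Arntl spans 106.7 kb and Dbp 5.1 kb, so length and phase cannot be told apart in this ratio either. Free RNA could supply 110% and 121% of the Dbp level in Tg ECs. With free RNA subtracted this ratio has no meaning, because Dbp was then at 0 in most Tg sums. The arm ratio kept groups that did not overlap in 4 of 10 classes after that subtraction, which takes Dbp out of most Tg sums but leaves part of it in most WT sums, and over all classed nuclei its difference of -0.35 became 0.07.

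**Figure D5:**
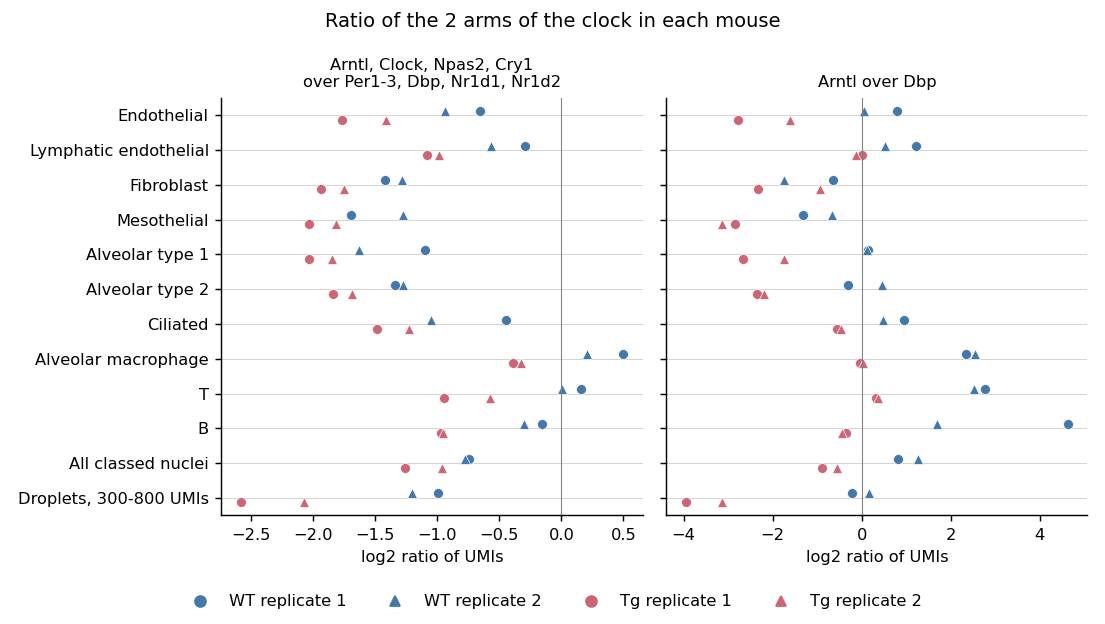
Log2 ratios of UMIs (x axis) in each mouse by class, in all classed nuclei and in the droplets (y axis), at left Arntl, Clock, Npas2 and Cry1 over the other 6 clock genes and at right Arntl over Dbp. Red Tg points lie left of blue WT points throughout at left, and alveolar macrophages and T cells lie nearest to 0 or above it.

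Further genes of the clock were read from a list of 15. Over the 10 classes 3 of 120 tests passed, all of Hlf, a PAR bZIP factor related to Dbp, a smaller share than the 6.86% of all tests. Hlf measured 15.2 and 15.8 CPM in WT and 31.2 and 41.0 CPM in Tg alveolar type 2 cells (log2 1.24, SE 0.26, edgeR adjusted p = 0.0221), and it was higher in Tg T cells (log2 1.33, SE 0.28) and B cells (log2 1.51, SE 0.34). It was higher in the droplets as well, with 27.2 and 51.7 against 69.1 and 99.5 CPM (log2 1.31, SE 0.33, adjusted p = 0.034). Its main class was mesothelial cells with 308 to 431 CPM, 3.14 above the other classes (log2, SE 0.11), and mesothelial nuclei numbered 186 and 289 in WT and 498 and 844 in Tg mice. Rora, an activator of Arntl, was lower in the droplets (log2 difference -1.18, SE 0.29, adjusted p = 0.033) and spans 734.5 kb. Hlf spans 54.4 kb, and genes of 50 to 100 kb had a median log2 difference of -0.23 in alveolar type 2 cells and -0.49 in the droplets. The part of free RNA and length in these calls was not tested.

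Between classes the further genes differed as well. Ciliated cells held more Usp2, a deubiquitinase of clock proteins (log2 difference 2.35, SE 0.12), and more Cry2, the second cryptochrome (1.26, SE 0.09), and 9 of the 15 passed there, beside 55.1% of all genes. ECs held more Ciart, a repressor of Arntl and Clock (1.67, SE 0.22, edgeR adjusted p = 1.99e-08). Alveolar macrophages, which had low Per3 and Nr1d2, also had less Cry2 (-1.15, SE 0.10) and Tef (-1.08, SE 0.08) and more Nfil3, which represses through D-boxes (1.79, SE 0.14), and 11 of the 15 passed, beside 53.6% of all genes. Mesothelial cells held more Tef (1.05, SE 0.07) and Rora (1.45, SE 0.07) and less Nfil3 (-0.997, SE 0.27).

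Glucocorticoids and handling can shift Per1 and other clock genes, so lists of their targets were read beside them. None of 56 tests of 6 glucocorticoid response genes passed over the 10 classes, beside 6.86% of all tests. The 2 WT mice were far apart on some of them, with 66.4 and 215 CPM of Fkbp5 and 549 and 1545 CPM of Zbtb16 in ECs, and both Tg mice lay between them (129 and 106 CPM of Fkbp5, 899 and 810 CPM of Zbtb16). The missing calls therefore do not show that the response was alike in the 4 mice. Of 7 immediate early genes, 4 of 45 tests passed, 3 of Jun and 1 of Ier2, all higher in Tg mice, beside 6.06% of all tests called higher and 25.2% of genes under 5 kb in ECs. Jun measured 23.5 and 30.4 CPM in WT and 78.4 and 54.5 CPM in Tg ECs (log2 1.30, SE 0.28, edgeR adjusted p = 0.0358), and 26.1 and 30.4 against 84.8 and 67.2 CPM in the droplets. Both Jun, with a span of 3.2 kb, and Ier2, with 1.5 kb, are short.

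The genes whose levels followed Dbp most closely over the 40 sums of mouse and class, after each class was centred, were Ndufb3 (Pearson r = 0.966), Rplp0 (0.951), mt-Atp6 (0.944), Tsc22d4 (0.943) and Rpl23a (0.942), among 11495 genes. Per3 was the nearest clock gene with r = 0.711, at rank 1211, and Arntl stood at -0.462. The 5 genes nearest to Arntl were Micu3 (0.752), Ch25h (0.736), Kmt5b (0.723), Ifrd1 (0.723) and Ccdc171 (0.716). These sums share 4 libraries, their depth and their free RNA, so the correlations are descriptions.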

How the data were processed

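Nuclei of 2 WT and 2 Tg lungs were sequenced with 10x Genomics chemistry. The authors deposited 1 matrix of UMI counts per mouse, not normalized and with all barcodes, made with Cell Ranger 6.1.1 on mm10 per the labels, while the matrix headers name version 4. Their later removal of free RNA, doublets and poor nuclei is not in these counts. Gene symbols and barcodes were read from the deposited files.

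Barcodes of at least 1500 UMIs were given a class where at least 3 of its markers were detected and their sum exceeded the mouse's free RNA (Poisson p under 1e-06) with no other class under 0.001, and barcodes with a second class were left out as doublets. Markers above 3000 CPM in free RNA were not used, which left 142 of 146, a limit chosen after the levels were seen. The clock genes, lists and tests were chosen with earlier results of these data known. The genes named are the 10 clock genes, the 3 lists and the 5 genes most correlated with Dbp and with Arntl among those with a mean of at least 20 UMIs (0.5 UMIs added). Values of 1 gene of the further clock list are not reported here.

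UMIs were summed per mouse and class and tested with edgeR 4.0.16 in R 4.3.3 (quasi-likelihood, two-sided, TMM, filterByExpr with a minimum count of 10, Benjamini-Hochberg over all genes, threshold 0.05). The free RNA share was the median, over the marker lists of the other classes, of a list's level in the class over that in the droplets. Class tests had mouse terms, and the test of ECs against other classes had class and mouse terms and left out lymphatic ECs. On simulated data with 2-fold changes the genotype test recovered 65% in ECs, 79.5% in all classed nuclei and 70% in the droplets, and the class test 96%. For the genotype test these simulated counts had the same dispersion for every gene and no length trend. Recovery in the real libraries may therefore be lower, and a missing call does not show that a gene was unchanged. An exact permutation test of 2 against 2 mice cannot go below p = 0.33. Alternatives were DESeq2, total UMIs, no filter, minima of 1000 and 3000 UMIs, a stricter class call, subtracted free RNA, a replicate block and each mouse left out, with other marker limits and removal of the length trend added after seeing the data. Gene spans came from GENCODE vM21 on GRCm38, and the 2 mice of a genotype were checked and were not the same library.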

Additional observations from a re-analysis of the deposited data

Results flagged for a closer look

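Arntl in ciliated cells differed from the other classes in its genotype difference, by 0.99 on the log2 scale (SE 0.24, edgeR adjusted p = 0.0219), in a test of the difference itself. It was 1 of 123 genes (0.826% of 14899) called in that test, which was added for every class other than ECs after the data were seen. Over 8 alternatives the difference lay between 0.75 and 1.33 and passed in 2.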

How the results depend on the processing

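The main values here are 8 calls of clock genes over the 10 classes, 1 in all classed nuclei and 4 in the droplets, and 7709, 694 and 3883 calls over all genes. Replicate numbers are shared by the genotypes but only name the mice, with 2 pairs (r = 0.273 between the deviations of same-numbered mice); the fit with a replicate block gave 13 clock gene calls and 13436 calls over the classes and 2021 in all classed nuclei. Removing the length trend gave 1, 0 and 1 clock gene calls and 3125, 5 and 908 calls over all genes. Subtracting free RNA gave 0 clock gene calls in both the classes and all classed nuclei, 171 and 114 calls over all genes, 10 in the test of ECs against other classes (6 as reported) and 32672 in the class tests (49983 as reported). Dbp, the clock gene called before, could then be tested in only 3 classes (9 as reported). With each mouse left out the clock gene calls ranged from 1 to 12 over the classes, 0 to 2 in all classed nuclei and 0 to 4 in the droplets, and all calls from 1389 to 13617, 0 to 3454, 0 to 4802 and, for ECs against other classes, 0 to 11. The lowest counts came without Tg replicate 1, and in all classed nuclei equally without Tg replicate 2. No filter gave 16034 calls over the classes, 3262 in all classed nuclei and 25 for ECs against other classes. In all classed nuclei DESeq2 gave 2495, total UMIs 1247, markers under 1000 CPM 397 and a minimum of 3000 UMIs 0, with 0 clock gene calls. Droplets of 100 to 300 UMIs, of which each mouse had 95 to 113, gave 61 calls. The clock genes had too few UMIs there to be tested, so this setting does not check their calls.

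The arm ratio differed by -0.35 in all classed nuclei, 0.070 with free RNA subtracted and -0.65 as mean log2 CPM, and in ECs by -0.79, -0.53 and -1.05. The Arntl to Dbp ratio turned from -1.78 to 1.66 in all classed nuclei and from -2.61 to 4.12 in ECs with free RNA subtracted. In single classes these values, and those of Dbp next, show no direction, since the subtraction left Dbp at or near 0 in most Tg sums and the count added then sets them. In all classed nuclei some Dbp UMIs were left in Tg mice, from the few sums that were not at 0. Those values therefore show no direction either. That subtraction also turned Dbp in alveolar type 1 cells (-7.58), alveolar type 2 cells (-3.58) and all classed nuclei (-1.62), Arntl (0.036), Clock (0.049) and Nr1d1 (-1.04) in all classed nuclei, Nr1d1 in ECs (-1.39), Per2 in all classed nuclei (0.17) and the EC difference of Dbp (-4.20). Removing the length trend turned Dbp in fibroblasts (-0.44), Per1 (-0.18), Per2 (0.036) and Nr1d1 (-0.13) in all classed nuclei, Nr1d1 in ECs (-0.040) and Per2 in the droplets (0.013). Near 0, Per2 in all classed nuclei turned with total UMIs (0.087), 3000 UMIs (0.14), all markers (0.10) and markers under 1000 CPM (0.19), and the EC difference of Dbp with total UMIs (-0.019), no filter (-0.0052) and the stricter class call (-0.16). Leaving out a mouse gave -0.065 to 0.70 for Per1 and -1.11 to 0.74 for Npas2 in ECs, -0.18 to 0.40 for Per1, -0.22 to 0.16 for Per2 and -1.18 to 0.066 for Npas2 in all classed nuclei, -0.33 to 0.055 for Per2 in the droplets and -0.19 to 0.23 for the EC difference of Dbp. Of the values for single genes and classes, 928 kept direction and side of the threshold, 135 lost it and 8 gained it; the cause of these changes was not tested.

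With 2 mice per genotype, all processed as whole lungs, genotype, library and hour of dissection cannot be told apart. Intervals and p-values do not cover the error of the free RNA estimate.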
